A study of Danio rerio with 18 samples.

Results

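Genes that carry out mitosis were followed through the adult zebrafish ventricle after sham surgery and cryoinjury, with and without deletion of tcf21. The members were taken from a list of 48 gene symbols that covers mitotic cyclins, kinases, kinesins, and kinetochore and cytokinesis genes. A member was kept if its symbol matched a row of the deposited gene table and it had at least 10 counts in at least 3 libraries. Of the 48 symbols 47 matched, all 47 met the count minimum, and they form 47 of the 25107 genes of the table. The gene incenp was not matched and was not analysed here. Since 46 of the members had 10 counts or more in all 18 libraries and bub1bb had them in 16, no member entered only through a group in which it was high. Their annotation in GRCz11 spread them over 21 chromosomes. The marker of cycling cells mki67 lies on chromosome 12 from 10366617 to 10381282 on the minus strand, next to the kinetochore gene ndc80 at 10353333 to 10365969.

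All fish carried the same alleles: a floxed tcf21 locus (tcf21vln18/vln18), the inducible recombinase transgene Tg(ubbR:CreERT2*)vln2 and the epicardial reporter TgBAC(tcf21:DsRed2)pd37. The conditional knockout (cKO) groups were labelled as treated with 4-hydroxytamoxifen, which activates the recombinase, at 5 µM in 3 baths of 24 h, and hearts were collected or operated 12 days after the first bath. The control groups carry a dash in that label, and what they were bathed in is not stated, so the drug and the deletion cannot be told apart. The recombinase is driven by a ubiquitin promoter and is therefore not limited to the epicardium. In each genotype arm ventricles were taken uninjured (day 0), 3 days after sham surgery, in which the heart was exposed, and 3 days after cryoinjury, a freezing wound made by a nitrogen-cooled probe. The 6 groups each had 3 libraries of polyadenylated RNA, each from 2 to 3 ventricles. The labels do not say which fish were handled together, so p-values measure only the spread between these libraries.

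Mitosis is driven by Cdk1 bound to A-type and B-type cyclins, with Polo and Aurora kinases acting beside it. Kinetochore proteins and kinesins attach and move chromosomes, the spindle checkpoint holds back the anaphase-promoting complex until all are attached, and the central spindle and contractile ring then divide the cell. Most of these genes are transcribed in G2 and M phase by the MuvB complex with B-Myb and FoxM1, so their RNA is a widely used sign of cycling cells. Adult zebrafish regrow heart muscle through division of existing cardiomyocytes, while epicardial cells, fibroblasts, endothelium and immune cells also divide after injury. In RNA from whole ventricles, fewer cycling cells and less RNA per cycling cell cannot be told apart.

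Library totals ranged from 107256750 to 191085931 counts, where 1 count stands for 75 aligned bases. Of the 25107 genes 20462 passed the filter on low counts and were tested. In counts per 1000000 (CPM), tcf21 was at 6.28 to 10.6 in control uninjured libraries, 15.2 to 18.9 in control sham and 14.7 to 15.2 in control cryoinjury libraries, and 0.411 to 0.910 CPM in the 9 cKO libraries. The file headers name 2 sequencing lanes. Lane 2 held the 3 control uninjured libraries and control sham replicates 1 and 2, and lane 4 held the other 13. Control uninjured and control cryoinjury ventricles therefore lay in different lanes, as did control and cKO uninjured ventricles, and for these comparisons lane and group cannot be told apart except through control sham, the 1 group that lies in both lanes.

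Replicate 1 of the cKO uninjured group stood apart for the mitosis genes. It had the highest CPM of its group for 47 of 47 members, by a median of 2.83 times over the higher of the other two (range 1.28 to 5.43). The summed CPM of the members was 358 in this library against 121 and 104 in replicates 2 and 3. Replicate 1 lay above all 3 control sham libraries for 36 members and below all 3 cKO cryoinjury libraries for 45. Several of its cell type marker sums were also the highest of the group, by smaller margins. These were fibroblast and matrix (2144 CPM against 2008 and 1314), endothelium (1130 against 1007 and 775) and epicardium (676 against 590 and 516). Cardiomyocytes (59081 against 55998 and 46728) and red blood cells (1427 against 999.9 and 432) were others. The neutrophil list also summed highest (170 against 132 and 108.9), but most of that sum was s100a10b. Before TMM scaling s100a10b was at 92.0 CPM or more in every library, where no other marker of that list exceeded 10.5. The macrophage sum of replicate 1 (508 CPM) lay between those of replicate 2 (346) and replicate 3 (923). Single genes weigh heavily in the epicardial and macrophage sums too. Before TMM scaling podxl of the epicardial list ranged from 267 to 594 CPM over the 18 libraries, and cd74a of the macrophage list from 138 to 605. The part of these cell types in the high mitosis level of replicate 1 was not tested.

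**Figure D1:**
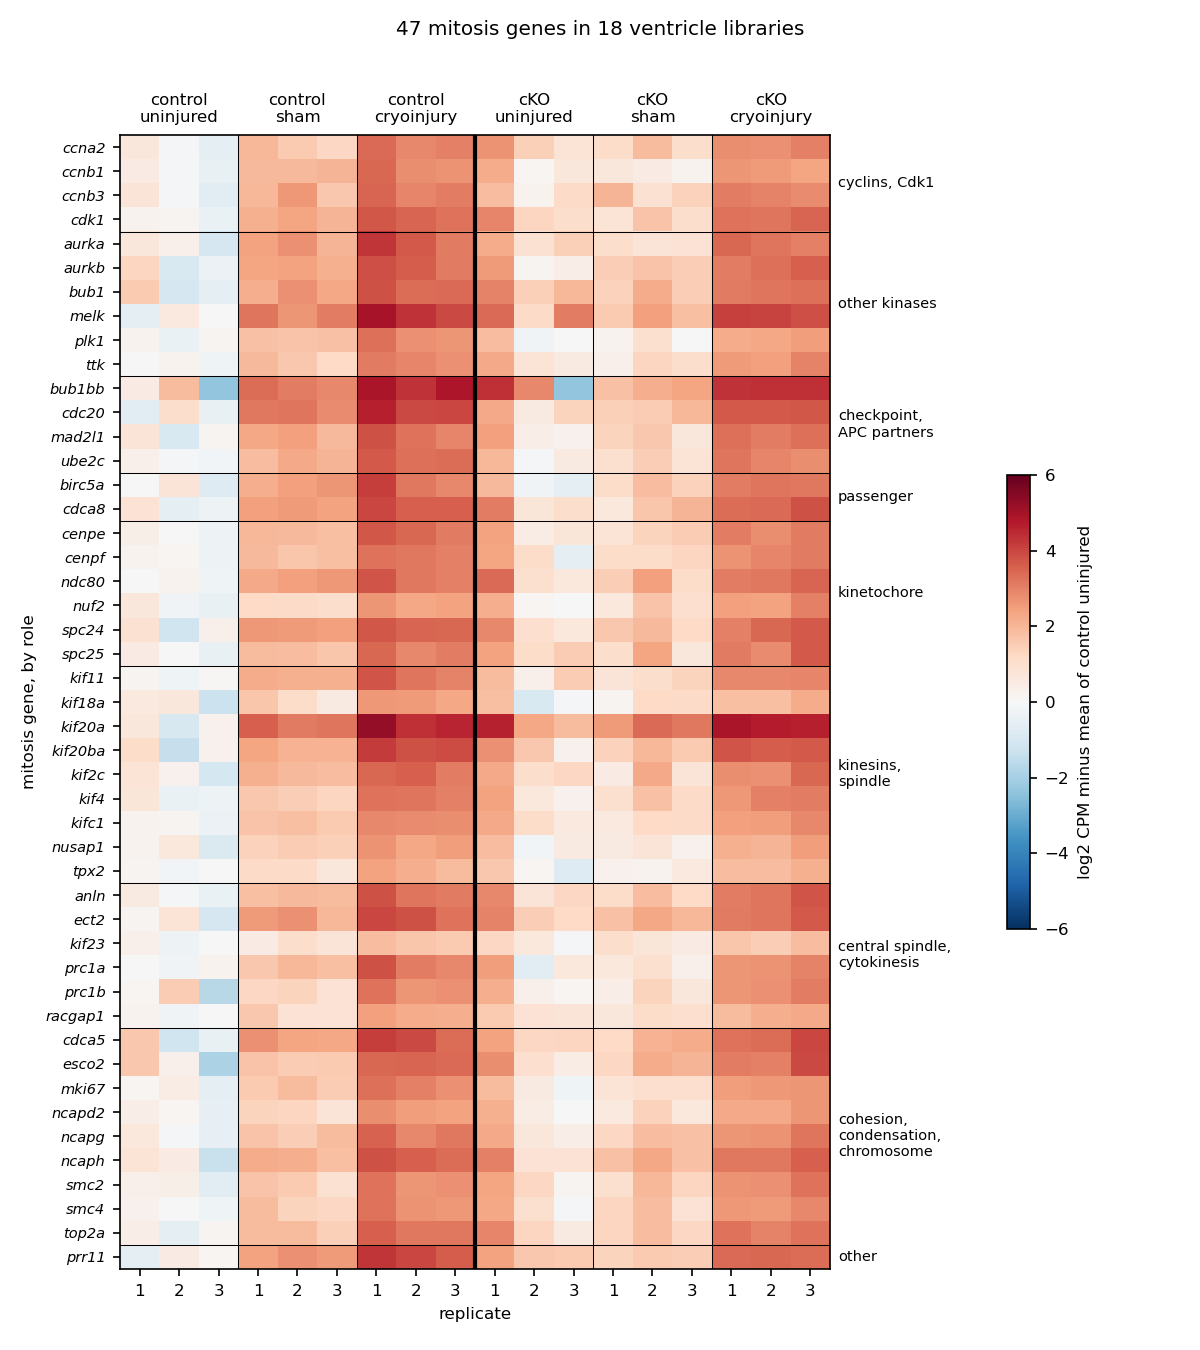
Level of each of the 47 mitosis genes (vertical axis, ordered by role) in each of the 18 libraries (horizontal axis, by group), as log2 CPM minus the mean of the 3 control uninjured libraries; red is higher and blue lower. The control arm darkens stepwise from uninjured to sham to cryoinjury, and replicate 1 of the cKO uninjured group is redder than its 2 partners in all 47 genes.

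Mitosis transcripts were scarce in the resting ventricle. Levels per transcript length, in transcripts per 1000000 (TPM), allow genes to be compared. Over the 18 libraries cdk1, the central mitotic kinase, had the highest mean at 12.5 TPM. It was followed by ube2c (7.92 TPM), whose enzyme works with the anaphase-promoting complex to pass ubiquitin to its targets. Next came the spindle assembly factor tpx2 (7.0), the contractile ring protein anln (5.98) and ccnb1, which encodes cyclin B1 (5.83). The lowest means belonged to the kinetochore protein cenpf (0.937), the kinesin kif18a (0.653) and the checkpoint kinase-like gene bub1bb (0.209). In control uninjured ventricles kif23, a central spindle kinesin, led with a mean of 2.06 TPM, ahead of tpx2 (1.98) and cdk1 (1.80). The value of tpx2 may hold reads of mylk2, a muscle gene at a mean of 78.0 TPM with which it shares 405 bases on the same strand. After cryoinjury in controls cdk1 led with a mean of 29.3 TPM.

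In control ventricles the mitosis genes formed a staircase from uninjured to sham to cryoinjury. For 44 of 47 members every sham library lay above every uninjured library and every cryoinjury library above every sham library, an order found in 4.66% of all tested genes. The exceptions were esco2, kif18a and prc1b, whose uninjured and sham libraries overlapped. The summed CPM of the members was 58.6 to 95.6 in uninjured, 211 to 246 in sham and 509 to 721 in cryoinjury libraries.

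Cryoinjury raised every member in controls. With edgeR's quasi-likelihood test and Benjamini-Hochberg adjustment over all tested genes, 47 of 47 were higher 3 days after cryoinjury than in uninjured ventricles, against 13.1% of all genes, and 0 were lower, against 10.6%. The groups lie in different lanes, and with lane as a covariate 21 of 47 were called. Shares of all genes called are given only for the main edgeR fit and for DESeq2, a second test. Counts of members under other fits stand without such a share. The median log2 fold change of the members was 3.22 (9.34-fold), and adjusted p ranged from 1.43e-06 to 0.0246. For all 47 the 3 injured libraries lay above the 3 uninjured ones, which held for 20.1% of all genes. The spindle checkpoint and anaphase-promoting complex partners had a role median of 3.74 on the log2 scale and the central spindle and cytokinesis genes 2.86. In this and the other 10 contrasts of the fit the median log2 change of all tested genes lay between -0.0057 and 0.042.

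Among the cyclins and their kinase, cdk1 was at 2.31, 2.22 and 1.48 CPM in control uninjured libraries and at 26.5, 22.4 and 19.1 CPM after cryoinjury. Every injured library was far above every uninjured one, a rise of 3.50 ± 0.41 (log2, SE; 11.3-fold; edgeR adjusted p = 2.71e-05). Cyclin B1 (ccnb1) went from 2.63, 1.76 and 1.36 CPM to 20.2, 12.7 and 11.9 CPM, and rose by 2.96 ± 0.42 on the log2 scale (edgeR adjusted p = 0.00012; 0.0583 with lane as a covariate). The groups again had no overlap, and replicate 1 was the highest library in both. The cycling marker mki67 went from 5.51, 6.82 and 3.49 CPM to 50.3, 42.1 and 34.0 CPM (log2 fold change 3.00 ± 0.40, edgeR adjusted p = 9.05e-05). Topoisomerase IIα (top2a), which untangles sister chromosomes, went from 4.54, 2.26 and 3.80 CPM to 40.3, 30.8 and 30.4 CPM (3.26 ± 0.47, edgeR adjusted p = 0.000176). Neither gene had an injured library within the uninjured range.

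The 3 largest rises belonged to genes that were nearly silent at rest. The kinesin kif20a works at the central spindle, and its gene shares 1657 bases on the opposite strand with cdc23. It was at 0.517, 0.156 and 0.380 CPM in uninjured and 12.7, 6.82 and 7.77 CPM in cryoinjured controls, a rise of 4.70 ± 0.65 on the log2 scale (26.1-fold, edgeR adjusted p = 0.00011). The kinase gene melk went from 0.127, 0.300 and 0.193 CPM to 6.32, 4.23 and 3.28 CPM, a rise of 4.46 ± 0.53 (edgeR adjusted p = 2.83e-05). The anaphase-promoting complex activator cdc20 went from 0.280, 0.926 and 0.320 CPM to 11.3, 7.04 and 7.15 CPM, a rise of 4.05 ± 0.48 (edgeR adjusted p = 2.85e-05). In all 3 genes the lowest injured library exceeded the highest uninjured library several times over. The smallest rise was that of kif23, at 1.69 ± 0.27, which started from 7.66, 5.12 and 6.23 CPM and reached 22.8, 19.8 and 18.6 CPM.

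**Figure D2:**
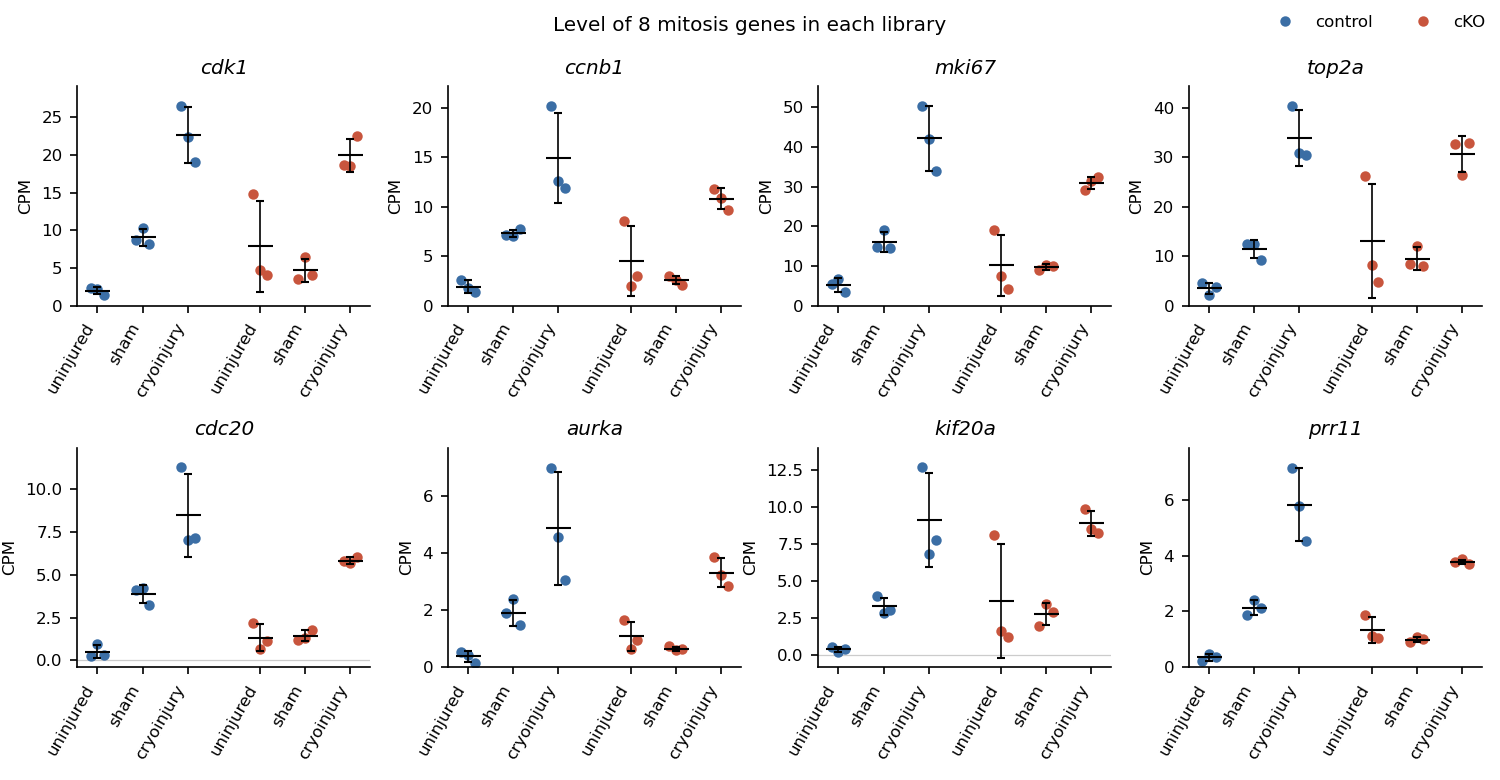
CPM of 8 mitosis genes in each library (points) with the mean and SD of each group (n = 3 libraries), groups along the horizontal axis and a separate linear vertical axis per gene. In controls the 3 groups rise in steps, for cdk1 from 1.48 to 2.31 through 8.13 to 10.3 to 19.1 to 26.5 CPM, while in cKO ventricles uninjured replicate 1 lies above its 2 partners in every panel.

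Sham surgery alone raised most of the members in controls. After 3 days 36 of 47 were higher than in uninjured ventricles (edgeR, adjusted p under 0.05), against 4.81% of all genes, and 0 were lower, against 2.82%. All 47 estimates were positive, with a median of 1.82 on the log2 scale (3.53-fold). For 44 members the libraries did not overlap, against 14.4% of all genes. Roles were assigned without overlap and do not hold whole complexes. The genes aurkb and bub1 were counted with the kinases, and kif20a with the spindle kinesins. By role the test was passed by 4 of 4 cyclin and Cdk1 genes, 6 of 6 other mitotic kinases and 5 of 6 kinetochore genes. It was passed by both genes filed under the passenger complex and 3 of 4 checkpoint and anaphase-promoting complex partners. It was also passed by 6 of 9 cohesion and condensation genes, 5 of 9 spindle kinesins and microtubule-binding genes, and 4 of 6 central spindle genes.

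The cdk1 level was 8.78, 10.3 and 8.13 CPM after sham, a rise of 2.17 ± 0.39 on the log2 scale over uninjured controls (4.51-fold, edgeR adjusted p = 0.00326). That of ccnb1 was 7.18, 7.05 and 7.74 CPM, a rise of 1.94 ± 0.40 (edgeR adjusted p = 0.00823). The 3 sham libraries were nearly level in ccnb1 and each lay above every uninjured library. For mki67 the sham libraries were at 14.9, 19.0 and 14.5 CPM (1.61 ± 0.38, edgeR adjusted p = 0.0177), and for top2a at 12.5, 12.5 and 9.30 CPM (1.70 ± 0.45, edgeR adjusted p = 0.0300). The call of top2a was lost in 5 of 6 fits without 1 library (highest adjusted p 0.122) and that of mki67 in 2 of 6 (0.0622). The 3 largest rises were again those of kif20a (3.22 ± 0.61), melk (2.99 ± 0.50) and cdc20 (2.91 ± 0.46).

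The 11 members that did not pass after sham were bub1bb, smc2, kif4, nusap1, ncapd2, nuf2, esco2, tpx2, kif18a, kif23 and prc1b. Their estimates ran from 0.65 for the spindle midzone gene prc1b (adjusted p = 0.591) to 2.40 for bub1bb (adjusted p = 0.234), which had 0 counts in 1 uninjured library. The count of 36 was sensitive to single libraries. It was 34, 19 and 20 without control uninjured replicates 1, 2 and 3, and 19, 20 and 23 without control sham replicates 1, 2 and 3. The last of these leaves only lane 2 libraries in both groups. With lane as a covariate it was 25.

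Cryoinjury exceeded sham in every control estimate, but few members passed the adjusted threshold. All 47 estimates were positive with a median of 1.35 on the log2 scale (2.55-fold), and for all 47 the cryoinjury libraries lay above the sham libraries, against 14.8% of all genes. By edgeR 2 members were called higher, against 0.753% of all genes. These were prr11 (1.44 ± 0.29, adjusted p = 0.0304) and racgap1, a central spindle gene that acts in cytokinesis (1.13 ± 0.24, adjusted p = 0.0332). At unadjusted p under 0.05 the count was 43, against 8.35% of all genes. DESeq2 called 30, against 5.47% of 14896 genes.

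The estimate of mki67 was 1.39 ± 0.38 (adjusted p = 0.0750), that of cdk1 1.32 ± 0.38 (0.0810), that of top2a 1.57 ± 0.44 (0.0810) and that of ccnb1 1.03 ± 0.39 (0.184), all by edgeR. None of the 4 overlapped between sham and cryoinjury libraries. Leaving out control sham replicate 1 left 1 call, and leaving out any other library of the 2 groups left 0. Lane 4 libraries alone, with 1 sham library, gave 0. A fit of only these 2 groups, whose spread is estimated from 6 libraries, called 44. The share of all genes called in that fit is not given, so the count has no background beside it.

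In cKO ventricles the order of the groups depended on uninjured replicate 1. With it, 0 of 47 members had all uninjured libraries below all sham libraries and these below all cryoinjury libraries, against 2.37% of all genes, and for 35 members the lowest group mean was that after sham. Without it, 21 members followed that order, against 4.02% of all genes, and for 4 the mean was lowest after sham. The summed CPM was 138 to 199 after sham, above the 121 and 104 of uninjured replicates 2 and 3 and below the 358 of replicate 1, and it was 466 to 574 after cryoinjury.

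Sham against uninjured cKO ventricles gave no call. By edgeR 0 of 47 members passed in either direction, against 0.933% of all genes higher and 0.112% lower. DESeq2 also called 0, against 2.28% of all genes higher and 0.659% lower, and 0 had an unadjusted p under 0.05, against 10.7% of all genes. The median estimate was -0.25, 12 were positive and 35 negative, and the libraries overlapped in all 47. In uninjured cKO libraries cdk1 was at 14.8, 4.76 and 4.10 CPM and after sham at 3.51, 6.46 and 4.14 CPM (log2 fold change -0.75 ± 0.37, edgeR adjusted p = 0.497). One uninjured library was thus far above all the rest, and the other 2 lay among the sham libraries.

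Uninjured cKO libraries had ccnb1 at 8.58, 2.02 and 3.01 CPM and sham ones at 3.00, 2.60 and 2.15 CPM (-0.81 ± 0.39, adjusted p = 0.478). The estimates were -0.06 ± 0.37 for mki67 (adjusted p = 0.990) and -0.46 ± 0.43 for top2a (adjusted p = 0.799). The most positive estimate was 0.66 ± 0.56 for birc5a, the zebrafish survivin gene of the passenger complex, and the next was 0.30 ± 0.43 for the cyclin gene ccnb3. The 3 smallest unadjusted p-values included that of melk (-0.86 ± 0.46), beside ccnb1 and cdk1.

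This comparison depended on cKO uninjured replicate 1. Without it 43 of the 47 estimates were positive, with a median of 0.64 on the log2 scale and 16 at unadjusted p under 0.05, and 0 were called (smallest adjusted p 0.0742). The estimates of mki67, cdk1, ccnb1 and top2a changed sign, to 0.75, 0.089, 0.041 and 0.55.

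Cryoinjury was above sham in the cKO arm, where all 6 libraries came from lane 4. By edgeR 15 of 47 members rose, against 1.18% of all genes, the median was 1.69 on the log2 scale (3.22-fold), and for all 47 the libraries did not overlap, against 16.7% of all genes. DESeq2 called 42, against 5.31%. The level of cdk1 went from 3.51, 6.46 and 4.14 CPM after sham to 18.7, 18.6 and 22.5 CPM after cryoinjury, a rise of 2.08 ± 0.39 (4.23-fold, edgeR adjusted p = 0.0173). The injured libraries were close together and far above the highest sham library. The largest rise was that of aurka, the spindle pole kinase, from 0.734, 0.593 and 0.647 CPM to 3.86, 3.25 and 2.85 CPM (2.34 ± 0.43, 5.05-fold, edgeR adjusted p = 0.0173). For ccnb1 the rise was 2.06 ± 0.41 (edgeR adjusted p = 0.0235) and for mki67 1.66 ± 0.38 (edgeR adjusted p = 0.0423). Of 6 fits without 1 library, the calls of ccnb1 and mki67 were lost in 6, that of aurka in 5 and that of cdk1 in 4. The estimate of top2a was 1.68 ± 0.44 with an adjusted p of 0.0732. The number called was 4, 1 and 3 without cKO cryoinjury replicates 1, 2 and 3, and 1, 3 and 2 without cKO sham replicates 1, 2 and 3. It was 24 with replicate number as a block and 44 in a fit of these 2 groups alone. For neither of these fits is the share of all genes called given.

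Against uninjured cKO ventricles, cryoinjury raised 25 members, against 6.92% of all genes (39 by DESeq2, against 10.4%), and all 47 estimates were positive with a median of 1.45 on the log2 scale (2.74-fold). The libraries did not overlap for 45 members, against 20.0% of all genes; bub1bb and ndc80 overlapped. The largest rises were those of birc5a (2.33 ± 0.57, edgeR adjusted p = 0.0160), cdc20 (2.15 ± 0.44, 0.00536) and ube2c (1.89 ± 0.39, 0.00524). Of 6 fits without 1 library, the call of birc5a was lost in 3 and those of cdc20 and ube2c in 0. The level of mki67 went from 19.0, 7.40 and 4.25 CPM to 29.3, 31.3 and 32.4 CPM (1.60 ± 0.38, edgeR adjusted p = 0.0140). That call was lost in 1 of the 6 fits. The estimates were 1.33 ± 0.38 for cdk1 (adjusted p = 0.0323, a call lost in 5 of 6 fits without 1 library), 1.25 ± 0.39 for ccnb1 (0.0527) and 1.22 ± 0.44 for top2a (0.0856).

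The size of this rise depended on the single high uninjured library. Without cKO uninjured replicate 1, 44 members were called and the median was 2.36 on the log2 scale (5.12-fold). Without cKO uninjured replicates 2 and 3 the count was 4 and 6, and without cKO cryoinjury replicates 1, 2 and 3 it was 10, 6 and 8. With replicate number as a block it was 37.

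**Figure D3:**
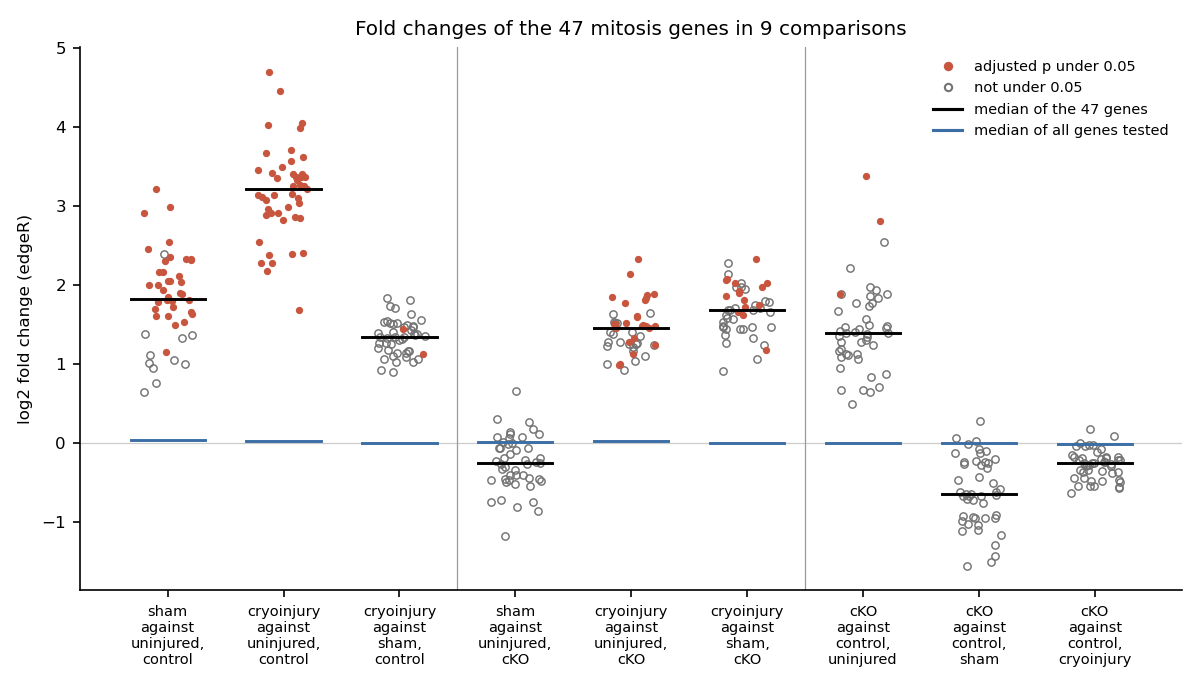
Log2 fold changes of the 47 mitosis genes (points) in 9 comparisons (horizontal axis); red points passed an adjusted p under 0.05 in edgeR, the black line is the members' median and the blue line the median of all tested genes. The median runs from 3.22 for cryoinjury against uninjured in controls to -0.65 for cKO against control after sham.

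The effect of the cKO was read within each condition. In uninjured ventricles all 47 estimates were higher in the cKO, after sham 44 were lower, and after cryoinjury 44 were again lower.

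In uninjured ventricles 3 members were called higher in the cKO by edgeR, against 0.103% of all genes. They were kif20a (3.38 ± 0.62 on the log2 scale, 10.4-fold, adjusted p = 0.0417), melk (2.82 ± 0.50, 7.05-fold, 0.0394) and prr11 (1.89 ± 0.31, 3.70-fold, 0.0242). The median of the 47 was 1.39 (2.62-fold), 40 had an unadjusted p under 0.05, against 7.30% of all genes higher at that level, and DESeq2 called 24, against 1.89%. The libraries did not overlap for 18 members, against 5.04% of all genes. The level of prr11 was 0.229, 0.488 and 0.373 CPM in controls and 1.89, 1.11 and 1.06 CPM in the cKO. All 3 cKO libraries lay above all 3 controls, as they did for kif20a at 8.05, 1.61 and 1.20 CPM. Among the genes given in every comparison cdk1 differed by 1.98 ± 0.39 (edgeR adjusted p = 0.0553), top2a by 1.89 ± 0.45 (0.107), ccnb1 by 1.25 ± 0.40 (0.204) and mki67 by 0.95 ± 0.38 (0.287).

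Without cKO uninjured replicate 1 the uninjured difference was smaller. In that fit 40 estimates were positive and 7 negative, the median was 0.65 on the log2 scale (1.57-fold), 17 had an unadjusted p under 0.05, and kif20a and prr11 were called. The log2 estimates were 2.01 for kif20a, 2.39 for melk and 1.57 for prr11. Of 6 fits without 1 library, the call of melk was lost in 2, that of kif20a in 1 and that of prr11 in 0. The number called was 6 and 11 without cKO uninjured replicates 2 and 3, and 6, 1 and 6 without control uninjured replicates 1, 2 and 3. It was 0 with lane as a covariate and 0 in a fit of these 2 groups alone. All control uninjured libraries came from lane 2 and all cKO libraries from lane 4. Markers of some other cell types also pointed higher in uninjured cKO ventricles, with 0 called. Positive were 8 of 8 macrophage markers (median 0.66 on the log2 scale) and 8 of 8 endothelium markers (0.38). Of the fibroblast and matrix markers 7 of 9 were positive (0.63, 5 at unadjusted p under 0.05). Summed fibroblast markers were 1314 to 2144 CPM in the cKO and 1133 to 1502 in controls. Cardiomyocyte markers were positive in 1 of 7 (-0.26) and erythroid markers in 1 of 8 (-0.54). Neutrophil markers were positive in 2 of 6 (-1.11) and T and NK lymphocyte markers in 1 of 6 (-0.79). Each of these last lists had 2 markers at unadjusted p under 0.05. Epicardial markers were split, with 4 of 8 positive (0.08) and 1 called lower. That list includes tcf21, the deleted gene itself, at 0.411 to 0.891 CPM in cKO and 6.28 to 10.6 CPM in control uninjured libraries. The part of these cell types in the result was not tested.

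After sham most estimates were lower in the cKO, with no member past the adjusted threshold. By edgeR 0 of 47 were called, against 0% of all genes higher and 0.0147% lower. Estimates were negative for 44, with a median of -0.65, and 11 had an unadjusted p under 0.05, against 4.31% of all genes lower at that level. For 24 members all cKO libraries lay below all control libraries, against 9.63% of all genes. DESeq2 called 3 lower, which were aurka, ccnb1 and prr11, against 0.470% of all genes. The exceptions to the direction were esco2 (0.29), nuf2 (0.07) and smc2 (0.03).

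Control sham libraries had ccnb1 at 7.18, 7.05 and 7.74 CPM and cKO sham libraries at 3.00, 2.60 and 2.15 CPM. The groups lay well apart, and the estimate was -1.50 ± 0.40 on the log2 scale with an edgeR adjusted p of 0.279. For aurka the control libraries were at 1.92, 2.38 and 1.47 CPM and the cKO libraries at 0.734, 0.593 and 0.647 CPM (-1.55 ± 0.42, adjusted p = 0.292). The level of prr11 was 1.88, 2.42 and 2.12 CPM against 0.908, 1.07 and 0.996 CPM (-1.11 ± 0.29, adjusted p = 0.281). In these 3 genes the highest cKO library was under the lowest control library. Control sham replicates 1 and 2 came from lane 2 and the cKO sham libraries from lane 4. By contrast top2a overlapped, at 12.5, 12.5 and 9.30 CPM in controls and 8.35, 12.1 and 8.14 CPM in the cKO (-0.26 ± 0.43, adjusted p = 0.977), and its estimate turned to 0.038 with lane as a covariate and with lane 4 libraries alone. The estimates of cdk1 and mki67 were -0.94 ± 0.37 (0.519) and -0.72 ± 0.38 (0.674).

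The size of the sham difference varied by role, with roles assigned without overlap as above, which is given as a description. The median log2 difference was -1.0 in the 4 checkpoint and anaphase-promoting complex partners, -0.93 in the 2 passenger complex genes, -0.89 in the 6 kinases other than Cdk1 and -0.78 in the cyclins and cdk1. It was -0.64 in the kinetochore genes, -0.57 in the spindle kinesins and microtubule-binding genes, -0.37 in the central spindle genes and -0.12 in the 9 cohesion, condensation and chromosome structure genes. The last group includes the condensin subunits smc2, smc4, ncapg, ncapd2 and ncaph, whose estimates ran from -0.23 to 0.03. Whether roles differ from each other was not tested.

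After cryoinjury, where all libraries came from lane 4, no member was called between cKO and control. By edgeR 0 of 47 were called, against 0.00489% of all genes lower and 0% higher, and DESeq2 called 0, against 0.674% higher and 0.131% lower. The median was -0.25, and 1 member, prr11, had an unadjusted p under 0.05, against 3.01% of all genes lower. It was at 7.14, 5.78 and 4.53 CPM in controls and 3.76, 3.86 and 3.70 CPM in the cKO, a difference of -0.62 ± 0.29 (edgeR adjusted p = 0.643) without overlap. Libraries did not overlap for 11 members, all lower in the cKO, against 11.3% of all genes. The level of cdk1 was 26.5, 22.4 and 19.1 CPM in controls and 18.7, 18.6 and 22.5 CPM in the cKO (-0.19 ± 0.37, adjusted p = 0.973). The estimates were -0.44 ± 0.37 for mki67, -0.47 ± 0.39 for ccnb1 and -0.14 ± 0.43 for top2a. The next smallest unadjusted p-values were those of the spindle motor kif11 (-0.48 ± 0.30) and the Polo kinase plk1 (-0.57 ± 0.41). The members nuf2 (0.19), spc25 (0.09) and smc2 had estimates above 0.

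**Figure D4:**
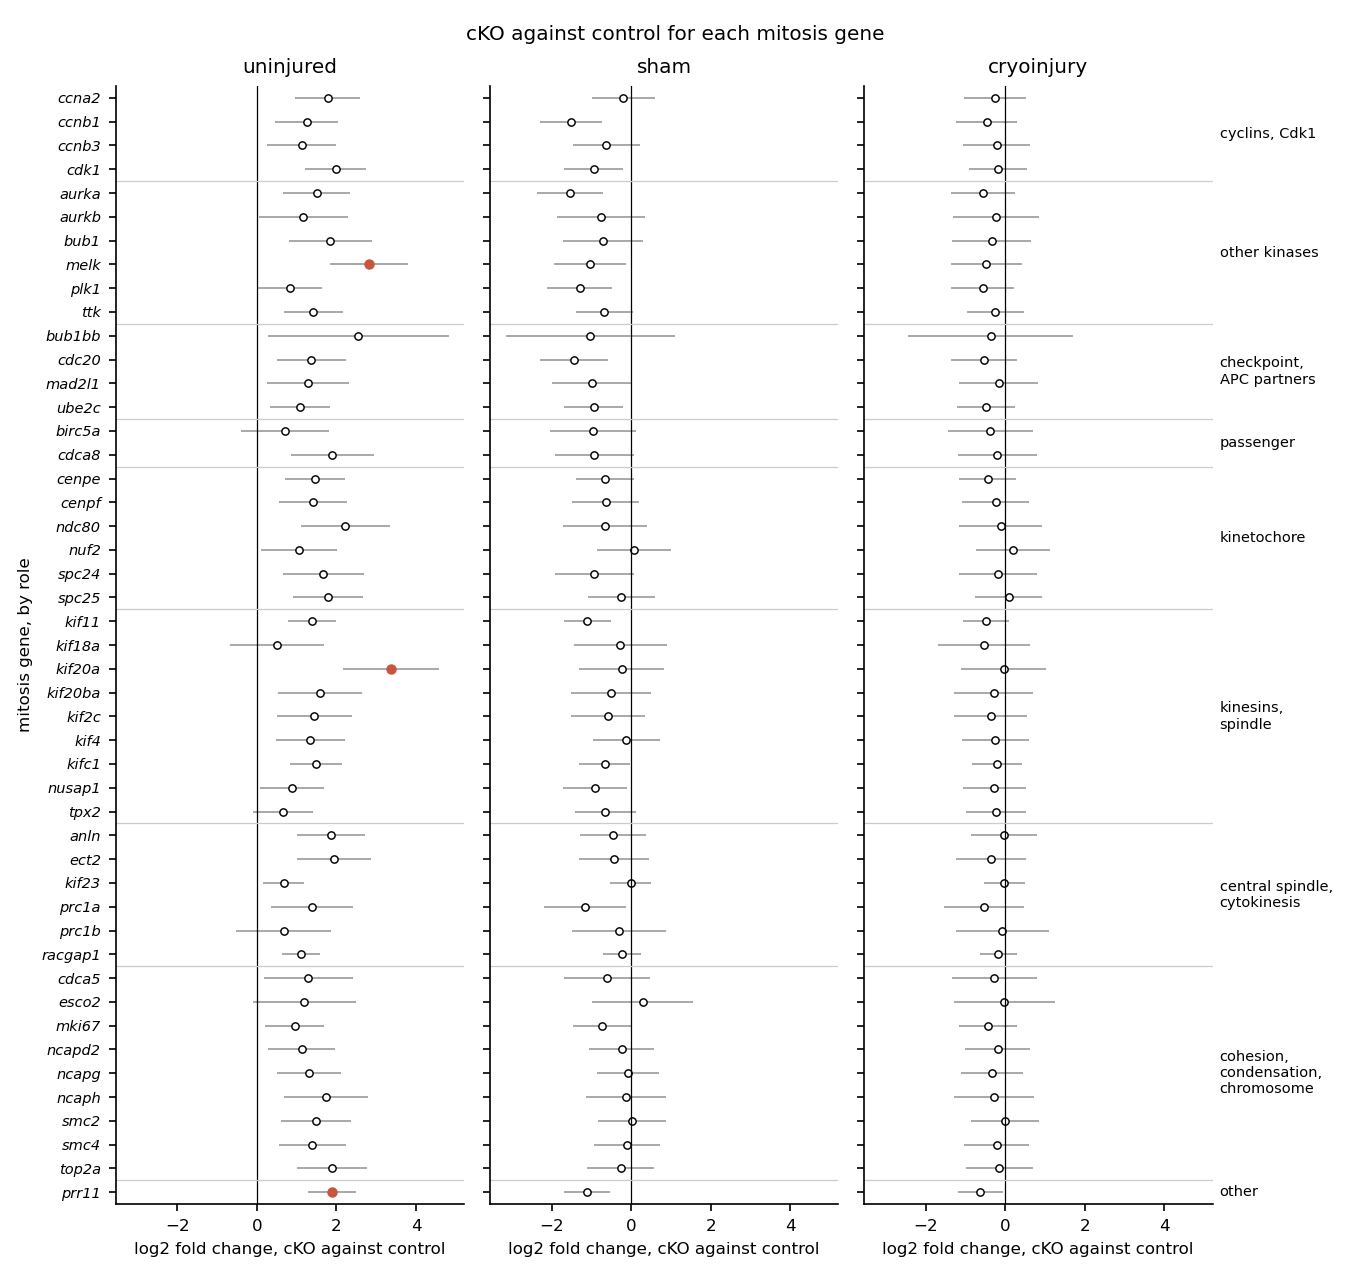
Log2 ratio of cKO to control for each of the 47 mitosis genes with its 95% interval from the SE, in uninjured, sham and cryoinjured ventricles (3 libraries per group); red marks the 3 genes that passed an adjusted p under 0.05. Estimates are above 0 for all 47 genes in uninjured ventricles and below 0 for 44 in each of the other conditions.

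The change in the cKO effect between conditions was tested as a difference of differences. Uninjured hearts were collected 12 days after the first bath, while operated hearts were collected 3 days after surgery on that day. The procedure and the longer time since the bath therefore cannot be told apart here. Between sham and uninjured ventricles 1 member passed in edgeR, against 0.0147% of all genes lower: prr11, whose cKO effect was lower after sham by -2.99 ± 0.42 on the log2 scale (adjusted p = 0.0130). All 47 estimates were negative with a median of -2.05, 41 had an unadjusted p under 0.05, against 4.98% of all genes, and DESeq2 called 22, against 0.803%. The estimates were -2.92 ± 0.54 for cdk1 (adjusted p = 0.0748), -2.75 ± 0.56 for ccnb1 (0.109), -2.15 ± 0.62 for top2a (0.277) and -1.67 ± 0.53 for mki67 (0.333). Without cKO uninjured replicate 1, 44 estimates were negative with a median of -1.26, and cdk1 and prr11 were called. The number called was 8, 3 and 3 without control uninjured replicates 1, 2 and 3, 7 and 8 without cKO uninjured replicates 2 and 3, and 0 without control sham replicate 1 or cKO sham replicate 3. In the last of these the adjusted p of prr11 was 0.0592. With replicate number as a block 4 were called, and in a fit of the 4 groups alone 0. With lane as a covariate 1 was called, prr11.

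Between cryoinjured and uninjured ventricles 0 members passed in edgeR, against 0.0147% of all genes lower. All 47 estimates were negative with a median of -1.69, 35 had an unadjusted p under 0.05, against 5.40% of all genes, and DESeq2 called 12, against 0.759%. The smallest unadjusted p-values belonged to prr11 (-2.51 ± 0.42, adjusted p = 0.0546), melk (-3.29 ± 0.67, 0.141) and kif11 (-1.88 ± 0.43, 0.170). Without cKO uninjured replicate 1, 42 estimates were negative and 5 positive, the median was -0.91, and 17 had an unadjusted p under 0.05. With all libraries the estimates were -2.17 for cdk1, -2.04 for top2a, -1.71 for ccnb1 and -1.40 for mki67. Leaving out single uninjured libraries gave 1 to 3 calls: 2, 1 and 1 without control replicates 1, 2 and 3, and 1, 3 and 1 without cKO replicates 1, 2 and 3. The tests of both differences use the same uninjured libraries and are not independent of each other. Control uninjured libraries came from lane 2, and cKO uninjured and all cryoinjury libraries from lane 4. A lane effect would therefore enter both differences and cannot be told apart from them except through control sham.

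Related members were compared within each library. Per transcript length prc1b exceeded prc1a, both microtubule bundlers of the spindle midzone, in 18 of 18 libraries, with a mean of 2.57 ± 0.42 against 0.803 ± 0.085 TPM (SD, n = 3) in control sham ventricles. The checkpoint kinase gene bub1 exceeded bub1bb in 18 of 18 and ccnb1 exceeded ccnb3 in 18 of 18. The kinesin gene kif20a exceeded kif20ba in 17 of 18, though the control uninjured means ran the other way (0.104 against 0.134 TPM). Reads of ANKRD1 (mean 7.57 TPM) may be mixed into kif20ba, since the genes share 1299 bases on the same strand. A transcript of 661 bases held 48.3% of the TPM of kif20ba. The gene aurkb, which encodes the kinase of the passenger complex, exceeded aurka in 16 of 18. The ratio of ccnb1 to ccnb3 was 3.74 after sham in controls and 2.04 after sham in the cKO, and that of aurkb to aurka was 1.76 and 2.98. Whether these ratios differ between genotypes was not tested.

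The members varied together across libraries. Over the 1081 pairs of members the median Pearson correlation of log2 CPM across the 18 libraries was 0.916 (range 0.683 to 0.992). After each group's mean was taken out the median was 0.677, and 1070 pairs were above 0. These points share group, depth and lane, and the values are a description. They include cKO uninjured replicate 1, which was the highest of its group for all 47 members. Correlations without that library are not given, so its part in the value of 0.677 is not known. The kinetochore motor gene cenpe followed the rest most closely and bub1bb, the lowest member, least.

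Mitosis genes outside the 47 were counted beside them. Of 59 matched from a separate list, 48 were higher and 1, the microtubule regulator ckap5, was lower after cryoinjury than in uninjured controls, with a median of 2.75 on the log2 scale, against 13.1% and 10.6% of all genes. After sham 17 were higher (median 1.24), against 4.81%. In uninjured ventricles 1, the kinetochore gene cenpi, was higher in the cKO (1.72, edgeR adjusted p = 0.0394), against 0.103% of all genes, and 49 of 59 estimates were positive. After sham 0 were called between genotypes, against 0.0147% of all genes lower and 0% higher, and 46 estimates were negative (median -0.30).

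Genes of DNA replication, which act before mitosis in S phase, were counted in the same comparisons. Of 37 S phase genes 36 were higher after cryoinjury than in uninjured controls (13.1% of all genes), with a median of 2.34 on the log2 scale, against 3.22 for the mitosis genes. After sham 1 was higher, the replication factor mcm10 (3.01, edgeR adjusted p = 0.0482), and 1 lower, orc6 (-1.45, 0.0385), which is no more than the 4.81% and 2.82% of all genes called in those directions. The median was 0.83, beside 1.82 for the mitosis genes, and 34 of 37 S phase estimates were positive. In edgeR an unadjusted p under 0.05 was reached by 18 of the 37, beside 43 of the 47 mitosis genes. The share of all genes at that level is not given for this comparison, so these counts have no background beside them. Between control sham and cKO sham 0 S phase genes were called, against 0.0147% of all genes lower and 0% higher. Of the S phase estimates 28 of 37 were positive (median 0.33), where 44 of 47 mitosis estimates were negative. The sliding clamp gene pcna had group means of 31.6, 56.6 and 139 CPM in uninjured, sham and cryoinjured controls and 57.1, 62.9 and 146 CPM in the cKO. No test compared the lists with each other.

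Both lists were also read in single libraries. The median level of the mitosis genes relative to the control uninjured mean was 1.97, 1.94 and 1.82 (log2) in control sham libraries and 1.07, 1.71 and 1.16 in cKO sham libraries. The S phase genes stood at 1.22, 0.87 and 0.73 in control sham and at 0.96, 1.65 and 1.28 in cKO sham libraries. In control sham libraries the mitosis median was therefore always the higher, and in cKO sham libraries the medians were close. In cKO uninjured replicate 1 both lists were raised, to 2.39 for mitosis and 1.68 for S phase genes.

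**Figure D5:**
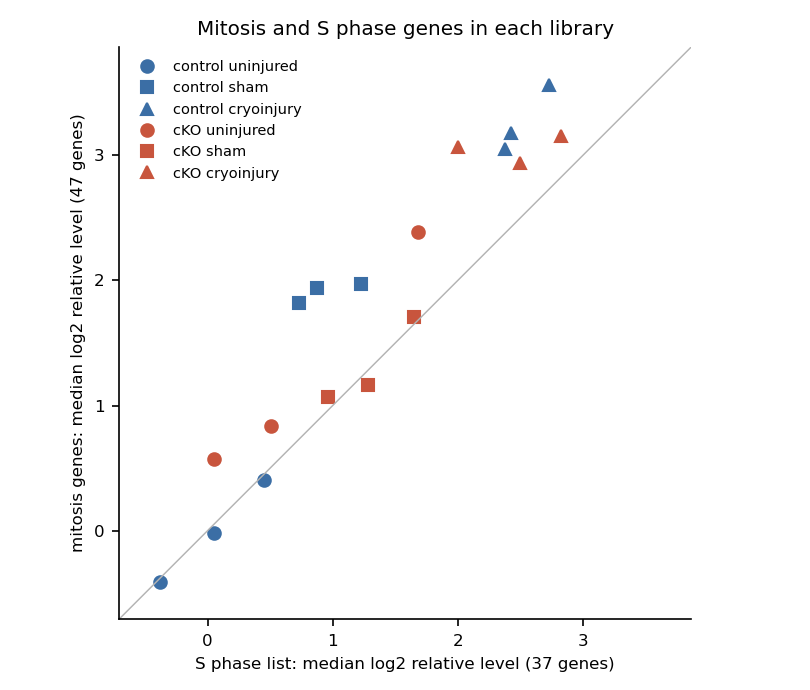
Median log2 level of 47 mitosis genes (vertical axis) against that of 37 S phase genes (horizontal axis) in each of 18 libraries, each relative to the mean of the 3 control uninjured libraries, with the line of equality. Control sham libraries lie above the line at 1.82 to 1.97, while cKO sham libraries lie near it at 1.07 to 1.71.

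Regulators of mitotic transcription were called after injury too. The shares of all genes called, 13.1% higher and 10.6% lower after cryoinjury and 4.81% and 2.82% after sham in controls, stand beside the counts that follow. Of 13 genes of the MuvB, B-Myb, FoxM1 and E2F group 7 were higher after cryoinjury in controls, among them foxm1 (3.34, edgeR adjusted p = 0.000912) and the B-Myb gene mybl2b (3.60, 9.42e-05). After sham 2 were higher, mybl2b (1.88, 0.0203) and the E2F repressor gene e2f7 (1.48), while foxm1 had an estimate of 1.87 (adjusted p = 0.0603). Group means of foxm1 were 0.736, 2.67 and 7.43 CPM in uninjured, sham and cryoinjured controls and 2.04, 1.78 and 5.72 CPM in the cKO. Of 17 genes of an anaphase-promoting complex list, 6 were higher and 2 lower after cryoinjury in controls (median 0.10). The list holds subunits, most of which are present outside mitosis too, and regulators and partners such as fbxo5 and ube2s. After sham 0 passed the adjusted threshold in edgeR, with 6 at unadjusted p under 0.05. For the latter count too the share of all genes is not given.

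Of 18 G1 regulators 11 were higher after cryoinjury in controls. After sham 4 were higher, ccnd1, ccnd2a, e2f3 and cdkn2c, and cdkn1a was lower (-1.78, edgeR adjusted p = 0.0128). Of 12 DNA damage and p53 target genes 5 were higher and 1 lower after cryoinjury. In the comparisons of cKO with control after sham and after cryoinjury 0 genes of any of these lists were called. Of all genes 0.0147% were called lower after sham, 0.00489% lower after cryoinjury and 0% higher in either. These counts therefore do not set the lists apart from all genes.

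Levels of cell type markers differed between the same groups. The summed level of cardiomyocyte markers was 51359 to 69894 CPM in control uninjured, 40133 to 46349 in control sham and 25963 to 33514 in control cryoinjury libraries. Fibroblast and matrix markers summed to 1133 to 1502, 5080 to 8070 and 6172 to 11304 CPM, and epicardial markers to 618 to 700, 1307 to 1594 and 1705 to 2618 CPM. Of these, 8 of 9 fibroblast and 7 of 8 epicardial markers were called higher in controls both after sham and after cryoinjury, and 4 of 7 cardiomyocyte markers were called lower after cryoinjury. Macrophage markers summed to 245 to 747, 410 to 676 and 719 to 1255 CPM. After sham in the cKO fibroblast markers stood at 4422 to 6448 and epicardial markers at 1180 to 1688 CPM, ranges that overlap those of control sham. Germ line markers, which could carry mitosis RNA from outside the heart, summed to 0.524 to 3.25 CPM, with nanos3 at 0 in all 18 libraries. The part of these cell types in the mitosis signal was not tested.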

How the data were processed

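The authors deposited an estimated count for each gene as a whole number, with no scaling for depth. They equal coverage times length over 75, within 1, for 100% of genes. Read length is not given in the sources used here, so 1 count need not be 1 read. Per the file headers StringTie 2.1.1 was run with the Ensembl 109 annotation of GRCz11, and per the submitters' processing notes Trim Galore 0.6.10, FastQC 0.11.9 and HISAT2 2.1.0 were used. Strandedness is not given in the sources used here, and 14 members share bases with another gene, so their reads may be mixed (kif20ba with the cardiac stress gene ANKRD1, for example). TPM values were summed per gene from the deposited library files. For names, the gene table supplied was joined with RefSeq (GRCz12tu, no coordinates).

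Genes were filtered by filterByExpr (minimum count 10), scaled by TMM and fitted in edgeR 4.0.16 (limma 3.58.1, R 4.3.3) with a mean for each of 6 groups of 3 libraries. Two-sided quasi-likelihood tests were adjusted over 20462 genes by Benjamini-Hochberg, and genes under 0.05 are called. The SE was obtained by dividing the size of the log2 change by the root of F. CPM was computed on TMM-scaled library sizes (prior count 2 for log2 values). Library totals were 107256750 counts or more. Precision is limited by the spread between replicates and, for the lowest members, by few counts. In control uninjured libraries melk had 15, 48 and 29 counts and bub1bb had 10, 39 and 0. Replicate pairs correlated at 0.928 to 0.973. DESeq2 1.42.0, other filters and scalings, lane, a replicate block, the groups compared alone and leaving out each library were alternatives; lane 4 libraries alone were added after seeing the data. The fit was tested on simulated data.

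In each comparison mki67, cdk1, ccnb1 and top2a are named, with the called members of the 3 largest changes in each direction or, with none called, the 3 of smallest p. Paralogue pairs and members against the trend are also named; further genes, such as aurka after sham, were chosen after their values were seen. Members and lists were chosen with earlier results of these data known. Comparisons that share a group are not independent.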

Additional observations from a re-analysis of the deposited data

Results flagged for a closer look

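The gene prr11 stood out because its cKO effect differed between sham and uninjured ventricles in the test of the difference itself: the log2 effect was 1.89 in uninjured ventricles and -1.11 after sham, a difference of -2.99 (edgeR adjusted p = 0.0130). It was higher in the cKO in 3 of 3 uninjured libraries and lower in 3 of 3 sham libraries.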

How the results depend on the processing

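Replicate numbers were shared between groups. Deviations from the group means correlated at -0.0336 to 0.198 in the 45 same-numbered pairs of libraries, with 9 of them above 0.1. Pairs of different numbers ran from -0.217 to 0.0995, so every correlation above 0.1 was between same-numbered libraries. The labels do not say whether the numbers pair the libraries. The main fit has no replicate block, and these values do not settle whether it should. All 3 pairs exceeded 0.1 between control uninjured and control sham (0.103 to 0.112), where the block called 37 members against 36. With a replicate block the members called were 6 for cryoinjury against sham in controls and 24 for the same comparison in the cKO. For cryoinjury against uninjured in the cKO the block called 37, against 25 without it. For the difference in cKO effect between sham and uninjured it called 4. The block also changed the sign of mki67 for sham against uninjured in the cKO (0.065). DESeq2 called more members: 24 and 3 for cKO against control in uninjured and sham ventricles, 30 and 42 for cryoinjury against sham in controls and the cKO, 39 for cryoinjury against uninjured in the cKO, and 12 and 22 for the differences of the cryoinjury and sham effects from the uninjured one. A fit of only the groups compared called 0 and 1 for cKO against control in uninjured and sham ventricles, 19 for sham against uninjured in controls, 44 for cryoinjury against sham in each arm, 5 for cryoinjury against uninjured in the cKO and 0 for the sham difference. With lane as a covariate 0 members were called between uninjured cKO and control, 21 for cryoinjury against uninjured in controls and 0 for cryoinjury against sham in controls, where lane 4 libraries alone also gave 0. The sign of top2a for cKO against control turned to 0.038 after sham with the lane covariate and to 0.038 with lane 4 libraries alone. After cryoinjury it ranged from -0.22 to 0.0020 when single libraries were left out, the latter without control cryoinjury replicate 1.

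Leaving out single libraries gave 1 to 11 calls for cKO against control in uninjured ventricles, 19 to 34 for sham and 45 to 47 for cryoinjury against uninjured in controls, and 0 to 1 for cryoinjury against sham in controls. In the cKO it gave 4 to 44 for cryoinjury against uninjured and 1 to 4 for cryoinjury against sham. It gave 0 to 3 and 0 to 8 for the cryoinjury and sham differences. For sham against uninjured in the cKO, leaving out single libraries gave estimates of -0.43 to 0.75 for mki67, -1.06 to 0.089 for cdk1, -1.16 to 0.041 for ccnb1 and -0.85 to 0.55 for top2a, the highest of each without cKO uninjured replicate 1, and leaving out cKO sham replicate 1 turned mki67 to 0.00026. The cause of these changes was not tested. Shares of all genes called are given above only for the main fit and DESeq2, so counts under the other alternatives have no background beside them. Of the named-gene values under all alternatives 806 kept direction and side of the threshold, 72 lost the call, 49 gained it and 9 changed sign.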
